A study of Homo sapiens with 9 samples.

Results

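The genes described here encode 5 transcription factors of mesenchymal cells, ZEB1, ZEB2, SNAI1, SNAI2 and TWIST1, and the question was where ZEB1 protein and CTCF lay at them. Members were all peaks of 5 deposited ChIP-seq peak lists that overlapped 1 of 5 windows of the human genome build hg19. The windows were chromosome 10 from 31590000 to 31830000 for ZEB1, chromosome 2 from 145130000 to 145300000 for ZEB2, chromosome 20 from 48580000 to 48620000 for SNAI1, chromosome 8 from 49810000 to 49855000 for SNAI2 and chromosome 7 from 19135000 to 19180000 for TWIST1. Together they cover 540 kb. They held 28 of the 47426 peaks of all lists, of which 19 were ZEB1 peaks (of 15672) and 9 were CTCF peaks (of 31754).

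ChIP-seq precipitates fixed chromatin with an antibody and sequences the DNA that comes with it, and a peak is a place where a peak caller finds more reads than in its background. ZEB1 was precipitated from unmodified MiaPaCa2 cells, a pancreatic ductal adenocarcinoma line, from unmodified RKO cells, a colon carcinoma line, and from a pair of MiaPaCa2 clones. Each clone is 1 line grown by dilution after electroporation with plasmids for the nickase form of Cas9. The delta-Repeat clone had also received pairs of guide RNAs against repeats upstream of the microRNA genes MIR200A and MIR200B, and the clone labelled WT served as its control. CTCF was precipitated from unmodified MiaPaCa2 cells only. Each condition had 1 list, so no difference between conditions could be set against a spread between replicates, and no test was made. Both clones were precipitated with 1 lot of the ZEB1 antibody, and the unmodified lines each with another lot. The ZEB1 lists of the unmodified lines held 4804 peaks (MiaPaCa2) and 7193 peaks (RKO), and those of the clones 1515 (WT) and 2160 (delta-Repeat). The lists do not give read depth, and a list from fewer reads can be shorter for that reason alone.

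ZEB1 and ZEB2 are zinc-finger proteins with a homeodomain between their finger clusters. They bind E-boxes of the form CACCTG, recruit corepressors and repress E-cadherin and other genes of epithelial cells. SNAI1 (Snail) and SNAI2 (Slug) are zinc-finger repressors that read the same kind of E-box, and TWIST1 is a basic helix-loop-helix protein that acts in mesoderm and neural crest. All 5 can drive an epithelial-to-mesenchymal transition, in which cells lose their junctions and become motile. Members of the miR-200 family of microRNAs repress ZEB1 and ZEB2 messages, while ZEB1 represses the miR-200 genes, a double-negative loop. CTCF is a zinc-finger protein of insulators and chromatin loop borders.

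Since ZEB1 lay at its own gene in every background, the E-boxes at the annotated starts of ZEB1 are shown first. RefSeq promoter windows run from 250 bases before to 50 bases after a start site in GRCh38.p14, and of the 5 genes ZEB1 (7 windows) and ZEB2 (1 window) were matched. The motif searched was CACCTG on both strands, which reads CAGGTG on the other strand. It was found in 2 of the 7 ZEB1 windows and not in the ZEB2 window, and 20.6% of all 35116 promoter windows hold at least 1. Window 3 of ZEB1, counted along the gene, held 3 copies, at positions −242, −85 and 33 (first base of the motif, with the start site as 0), and 0.635% of all windows hold at least 3. Window 1 held 1 copy, at position −57. The broader E-box CANNTG, which includes every CACCTG, was in 4 of the 7 ZEB1 windows and in the ZEB2 window, against 68.7% of all windows. The 2 ZEB1 windows with CACCTG and the ZEB2 window are printed 5′ to 3′ on the strand of the gene, with CACCTG and CAGGTG in capitals.
ZEB1 window 1, chr10:31318167-31318466, plus strand: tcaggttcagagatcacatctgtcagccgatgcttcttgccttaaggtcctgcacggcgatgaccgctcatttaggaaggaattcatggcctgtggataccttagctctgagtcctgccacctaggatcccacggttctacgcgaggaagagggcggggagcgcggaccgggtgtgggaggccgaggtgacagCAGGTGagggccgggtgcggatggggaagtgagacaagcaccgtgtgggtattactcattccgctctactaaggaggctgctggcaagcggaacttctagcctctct
ZEB1 window 3, chr10:31318966-31319265, plus strand: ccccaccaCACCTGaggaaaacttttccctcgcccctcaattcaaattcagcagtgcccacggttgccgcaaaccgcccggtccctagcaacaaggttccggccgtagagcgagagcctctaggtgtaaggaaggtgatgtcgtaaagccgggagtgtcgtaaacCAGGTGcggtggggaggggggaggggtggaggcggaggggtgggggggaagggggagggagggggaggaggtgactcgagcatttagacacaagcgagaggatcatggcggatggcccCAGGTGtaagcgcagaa
ZEB2 window, chr2:144520070-144520369, minus strand: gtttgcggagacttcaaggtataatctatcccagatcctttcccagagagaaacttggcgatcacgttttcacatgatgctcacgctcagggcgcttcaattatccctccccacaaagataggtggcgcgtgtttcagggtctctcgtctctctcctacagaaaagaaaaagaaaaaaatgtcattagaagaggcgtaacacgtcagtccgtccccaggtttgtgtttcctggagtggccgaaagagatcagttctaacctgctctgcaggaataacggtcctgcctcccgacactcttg
In window 3 of ZEB1, the copies at −85 and 33 also lie in a start window of ZEB1-AS1, the antisense RNA that begins within this stretch on the other strand. All 7 ZEB1 windows fall within 3.54 kb of GRCh38.p14. A match is a description of the letters and not a binding site, and these coordinates could not be laid over the peaks, which are in hg19. For this reason the position of a peak relative to exons, introns and start sites was not analysed here.

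ZEB1 peaks were found in the windows of ZEB1, SNAI1 and SNAI2, and in none of the 4 ZEB1 lists in the windows of ZEB2 and TWIST1. The ZEB1 window held 11 of the 19 ZEB1 peaks, the SNAI1 window 6 and the SNAI2 window 2. By list, the 5 windows held 5 peaks of MiaPaCa2, 7 of RKO, 5 of the delta-Repeat clone and 2 of the WT clone. Per Mb of window this was 9.26 peaks for MiaPaCa2 and also for the delta-Repeat clone, 12.96 for RKO and 3.70 for the WT clone. Over all chromosomes the lists held 1.57 (MiaPaCa2), 0.707 (delta-Repeat clone), 2.36 (RKO) and 0.496 (WT clone) peaks per Mb. Joined where they overlapped, the ZEB1 peaks of the windows made 10 regions. Of these, 1 was in all 4 ZEB1 lists, 1 in 3, 3 in 2 and 5 in 1 list only. Among all 9306 joined regions 9.84% were in all 4 lists, 8.85% in 3, 17.6% in 2 and 63.7% in 1.

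**Figure D1:**
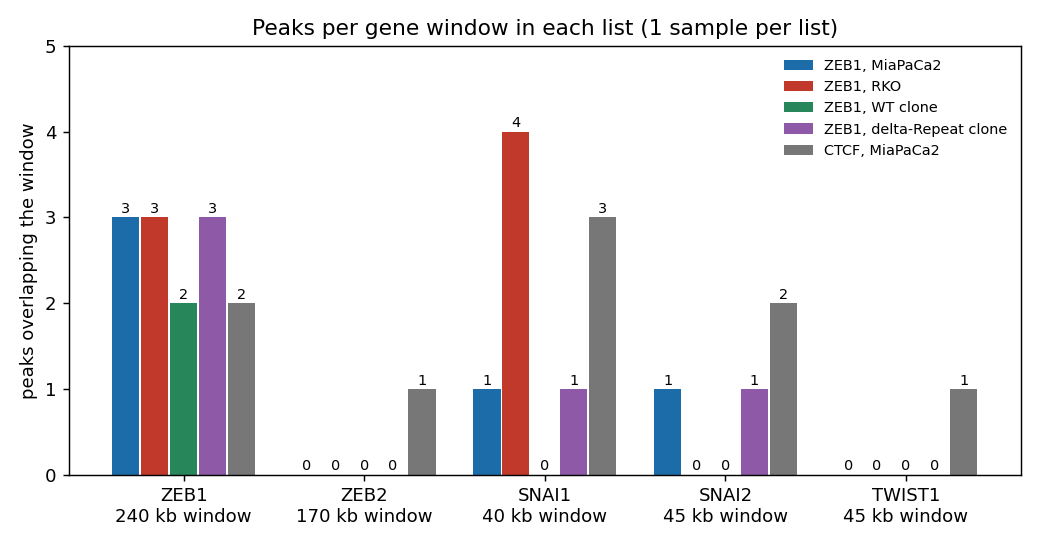
Number of peaks (vertical axis) that overlap each gene window (horizontal axis, with the window length in kb), 1 bar per list and 1 sample per list. ZEB1 peaks lie in the ZEB1, SNAI1 and SNAI2 windows, while the ZEB2 and TWIST1 windows hold 1 CTCF peak each and no ZEB1 peak.

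At the ZEB1 gene, all 4 ZEB1 lists had peaks. MiaPaCa2, RKO and the delta-Repeat clone had 3 peaks each, and the WT clone had 2. To read these counts, all chromosomes were divided into stretches as long as the window. Stretches without genes and gaps of the assembly were not left out, whereas each window was placed at a gene. In stretches of 240 kb, at least 3 peaks were found in 3.4% for MiaPaCa2, 6.36% for RKO and 0.818% for the delta-Repeat clone, and at least 2 in 1.77% for the WT clone. The 3 delta-Repeat clone peaks include a pair called at 1 place, 211 bp apart, so the share set beside them depends on that split. At least 1 peak was found in 21.5% for MiaPaCa2, 12.7% for the delta-Repeat clone, 24.9% for RKO and 9.2% for the WT clone. The 11 peaks were not spread over the window. All lay between 31605936 and 31611187, a stretch of 5252 bp, and the 218813 bp from there to the end of the window held no ZEB1 peak in any list.

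The place found in every list spanned chromosome 10 from 31606945 to 31608074. The authors' fold enrichment is the height of the peak summit over the caller's background as a linear ratio. It is used here to rank a peak within its own list and in the stricter threshold below. Folds of several lists given side by side were not compared as binding strength. In MiaPaCa2 the peak ran from 31606945 to 31607975 with a fold of 10.9 (−log10 q 18.3), and 83.9% of the MiaPaCa2 peaks had a lower fold. In RKO it ran from 31607080 to 31608074 with a fold of 13.9 (−log10 q 43.3), above 94.1% of the RKO list. This was the highest place within its list of any ZEB1 peak in the 5 windows.

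In the WT clone the peak at this place, from 31607179 to 31607990, had a fold of 7.01 (−log10 q 10.00), above 41.3% of its list. The delta-Repeat clone had a pair of narrower peaks here. They ran from 31607025 to 31607484 (fold 6.28) and from 31607696 to 31607975 (fold 6.19), above 36.1% and 34.1% of the list. They were 211 bp apart, and the wide peak of each other list overlapped both. In both clones this place was in the lower part of the list, and in both unmodified lines it was in the upper part. By rank of fold it was 769 of 4804 in MiaPaCa2, 427 of 7193 in RKO and 884 of 1515 in the WT clone. The delta-Repeat clone peaks ranked 1371 and 1399 of 2160. The lists differ in length, so shares of different lists do not compare binding strength. The part of list length in this contrast was not tested.

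The summits within this place fell in 2 groups, 593 to 701 bp apart between lists. On the left were the summits of MiaPaCa2 (31607278) and of the first delta-Repeat clone peak (31607202), 76 bp from each other. On the right were the summits of RKO (31607898), of the WT clone (31607903) and of the second delta-Repeat clone peak (31607871). RKO and the WT clone differed there by 5 bp, and the delta-Repeat clone lay 27 bp from RKO. The MiaPaCa2 summit was 620 bp from that of RKO, although 896 bp of the peaks overlapped. Each list reports 1 summit per peak, so a lower second maximum within a wide peak was not visible.

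Next to it, from 31608168 to 31608591, MiaPaCa2 and the delta-Repeat clone shared a peak that the WT clone and RKO lists did not hold. Its fold was 9.54 in MiaPaCa2, above 78.0% of the list, and 8.23 in the delta-Repeat clone, above 64.8%, with summits 24 bp apart. In the delta-Repeat clone this was the strongest of the 3 peaks at ZEB1. Another place, from 31609170 to 31609615, was shared by MiaPaCa2 (fold 6.36) and the WT clone (fold 5.78), with summits 144 bp apart, and was absent from the RKO and delta-Repeat clone lists. RKO had its own peaks on either side of the group, from 31605936 to 31606149 with a fold of 5.51 and from 31610466 to 31611187 with a fold of 4.75. Both were weak within RKO, above 38.5% and 18.1% of its list.

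**Figure D2:**
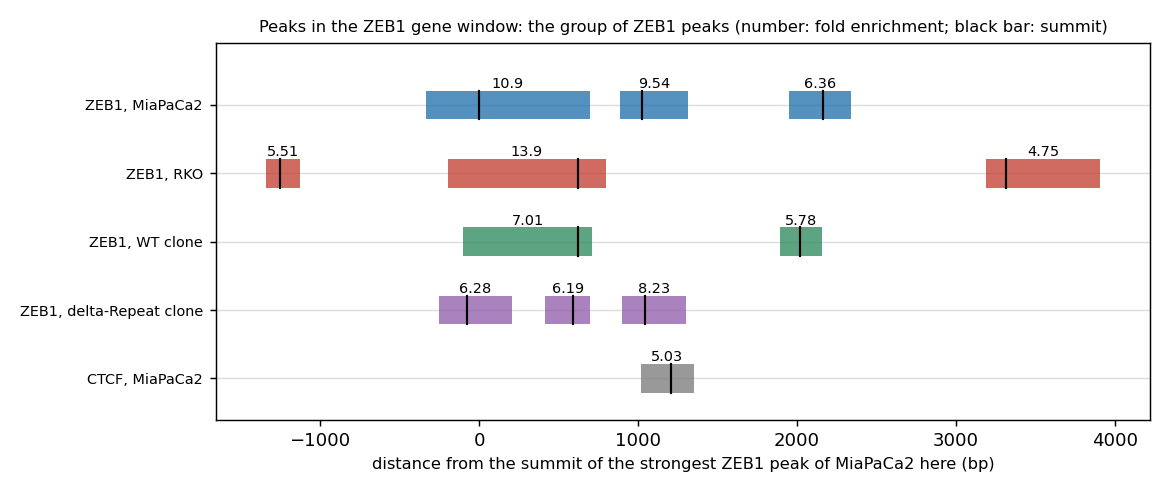
Peaks of the 5 lists in the part of the ZEB1 window that holds all of its ZEB1 peaks, as distance in bp from the summit of the strongest MiaPaCa2 peak there. Bars are peaks, black lines summits and numbers the authors' fold enrichment. The wide place around 0 bp has a peak in all 4 ZEB1 lists, and the CTCF peak with its summit at 1205 bp overlaps a ZEB1 peak of MiaPaCa2 and of the delta-Repeat clone.

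The clones differed on chromosome 10 as a whole, which held 6.67% of the WT clone peaks and 3.24% of the delta-Repeat clone peaks. The share was 4.91% in MiaPaCa2 and 4.10% in RKO. Chromosome 2 differed the other way, with 7.13% of the WT clone peaks and 9.91% of the delta-Repeat clone peaks. Chromosomes 7, 8 and 20 differed less between the clones. Within the ZEB1 window each clone had peaks at 2 places, covering 1146 bp in the delta-Repeat clone, where 1 place was called as a pair of peaks, and 1079 bp in the WT clone. Outside the window, the nearest peak before it ended 196 kb away in MiaPaCa2 and in the WT clone and 57.9 kb away in RKO, but 6834 kb away in the delta-Repeat clone. After the window, the nearest peak began 219 kb away in all 4 lists, at the same place (32048553 to 32049077 in MiaPaCa2, fold 12.3). The part of chromosome 10 and of list length in the differences between the clones was not tested.

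CTCF had 2 peaks in the ZEB1 window. The first, from 31608297 to 31608629, overlapped the second ZEB1 place. It was weak, with a fold of 5.03 (−log10 q 4.75), and 4.93% of the CTCF list had a lower fold. Its summit lay 182 bp from the ZEB1 summit of MiaPaCa2 and 158 bp from that of the delta-Repeat clone. The second CTCF peak, from 31780015 to 31780465, had a fold of 9.80 and no ZEB1 peak near it. At least 1 CTCF peak was found in 67.5% of stretches of this length and at least 2 in 52%.

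At SNAI1, the ZEB1 lists ran from no peak in the WT clone to 4 in RKO. MiaPaCa2 and the delta-Repeat clone had 1 each. In stretches of 40 kb, at least 1 peak was found in 4.94% for MiaPaCa2, 2.5% for the delta-Repeat clone, 6.43% for RKO and 1.79% for the WT clone, and at least 4 in 0.266% for RKO. At least 1 CTCF peak was found in 28.2%. The place shared by 3 lists spanned 48587013 to 48587509 on chromosome 20. Its fold was 9.09 in MiaPaCa2, above 75.3% of the list. It was 6.44 in RKO, above 57.8%, and 8.23 in the delta-Repeat clone, above 64.8%.

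The summits of this SNAI1 peak fell within 3 bp of each other in the 3 lists, at 48587195, 48587197 and 48587198. Among the 5 places of the windows that were in several lists this was the smallest spread of summits, and the ZEB1 place in all 4 lists had the widest, at 701 bp. In RKO a pair of weaker peaks lay just before it, from 48585905 to 48586104 (fold 5.24) and from 48586629 to 48586869 (fold 5.72). The fourth RKO peak lay 11.8 kb further on by its summit, from 48598824 to 48599333, with a fold of 4.54, above 13.6% of the RKO list. It overlapped a CTCF peak of MiaPaCa2 (48598940 to 48599322, fold 12.7), with summits 112 bp apart. The CTCF list is from MiaPaCa2, so CTCF in RKO was not analysed here.

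Between these ZEB1 places lay the strongest CTCF peak of the windows, from 48595461 to 48596043, with a fold of 36.9 (−log10 q 128). It was above 99.3% of the CTCF list and had no ZEB1 peak over it. The other CTCF peak of the SNAI1 window (48581397 to 48581821) had a fold of 12.3. At least 3 CTCF peaks were found in 3.02% of stretches of 40 kb. Outside the SNAI1 window, all 4 ZEB1 lists had a peak about 73 kb before it, at 48506261 to 48507053 in MiaPaCa2. Its fold was 21.2 in MiaPaCa2, 8.87 in the delta-Repeat clone, 8.45 in RKO and 17.8 in the WT clone. The WT clone list thus held that place but no SNAI1 peak.

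At SNAI2, MiaPaCa2 and the delta-Repeat clone had 1 ZEB1 peak each, at the same place on chromosome 8, while RKO and the WT clone had none. In stretches of 45 kb, at least 1 peak was found in 5.49% for MiaPaCa2, 2.82% for the delta-Repeat clone, 7.11% for RKO and 2% for the WT clone. In MiaPaCa2 the peak ran from 49833732 to 49834031 with a fold of 5.73 (−log10 q 6.14), above 32.3% of the list. In the delta-Repeat clone it ran from 49833625 to 49834328 with a fold of 8.71 (−log10 q 14.4), above 69.1%, the highest place within that list of its 5 member peaks. The peak was 300 bp wide in MiaPaCa2 and 704 bp wide in the delta-Repeat clone, and the summits were 73 bp apart. It was thus among the weaker MiaPaCa2 peaks and among the stronger delta-Repeat clone peaks.

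Around SNAI2, the nearest ZEB1 peak of MiaPaCa2 before the window ended 1160 kb away and the nearest after it began 4900 kb away. In RKO these distances were 1161 and 3772 kb. In the delta-Repeat clone these distances were 108 and 6830 kb. The WT clone list held no peak between 42196088 and 56685078, a stretch of 14.5 Mb that held 8 MiaPaCa2, 9 RKO and 3 delta-Repeat clone peaks. This stretch was chosen with the lists in view, and the WT clone list is the shortest. Gaps of the assembly, where no list can hold a peak, were not taken out of the 14.5 Mb. A CTCF peak (49834181 to 49834686, fold 7.45) overlapped the delta-Repeat clone peak by 148 bp and began 149 bp after the end of the MiaPaCa2 peak. Their summits were 655 and 582 bp from that of CTCF. The second CTCF peak of the SNAI2 window (49838072 to 49838711) had a fold of 27.1, above 97.3% of its list, and at least 2 were found in 11.2% of stretches of this length.

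**Figure D3:**
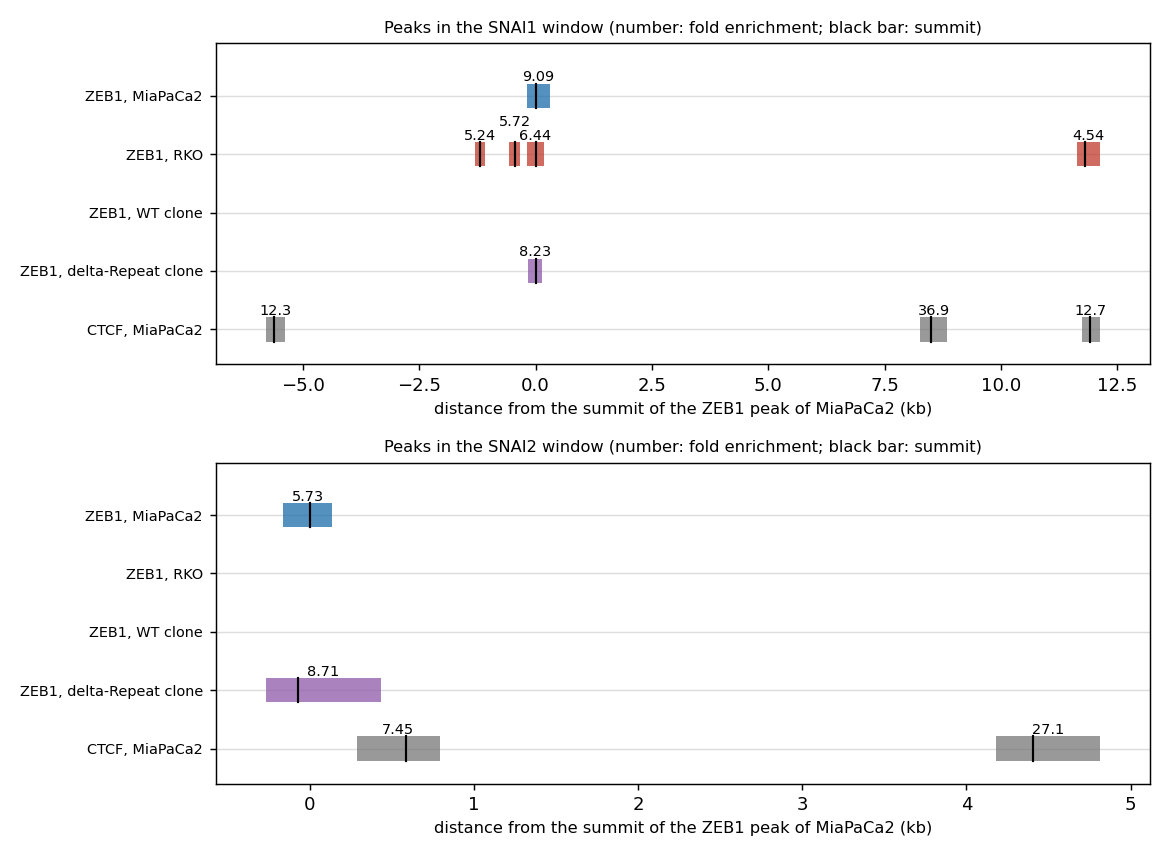
Peaks of the 5 lists in the SNAI1 window (top) and the SNAI2 window (bottom), as distance in kb from the summit of the MiaPaCa2 ZEB1 peak. Bars are peaks, black lines summits and numbers the authors' fold enrichment. The summits at 0 kb in SNAI1 line up in MiaPaCa2, RKO and the delta-Repeat clone, and the strongest CTCF peaks, with folds of 36.9 and 27.1, carry no ZEB1 peak.

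At ZEB2, no ZEB1 list had a peak in the window of 170 kb. Stretches of this length held at least 1 peak in 16.6% of cases for MiaPaCa2, 9.48% for the delta-Repeat clone, 19.9% for RKO and 6.74% for the WT clone, so a window without a peak was the common case. Just outside, RKO and the delta-Repeat clone had a peak at the same place, 39.5 kb before the window, from 145090279 to 145090544 in RKO. Its fold was 7.78 in RKO and 3.45 in the delta-Repeat clone, where it ranked 2151 of 2160. In MiaPaCa2 and in the WT clone the nearest peaks were 5347 kb before and 4101 kb after the window. CTCF had 1 peak in the ZEB2 window (145206674 to 145206876), with a fold of 4.23, above 1.10% of its list. The window with 1 Mb on each side held 2 CTCF peaks, while the CTCF list held 10.4 per Mb over all chromosomes. Other stretches of that longer length were not counted. At least 1 CTCF peak was found in 60.2% of stretches of 170 kb.

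At TWIST1, no ZEB1 list had a peak in the window of 45 kb, and 5.49% of stretches of this length held a peak for MiaPaCa2, 2.82% for the delta-Repeat clone, 7.11% for RKO and 2% for the WT clone. The nearest ZEB1 peak before the window was at the same place in all 4 lists, 586 kb away (18547892 to 18548852 in MiaPaCa2). Its fold was 14.99 in MiaPaCa2, 8.01 in the delta-Repeat clone, 9.43 in RKO and 7.38 in the WT clone. The 1 CTCF peak of the TWIST1 window (19161605 to 19161982) was strong, with a fold of 23.0 (−log10 q 68.7), above 94.0% of its list. TWIST1 therefore had a strong CTCF peak without ZEB1, and ZEB2 a marginal CTCF peak without ZEB1. Of stretches of 45 kb, 30.6% held at least 1 CTCF peak.

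Sharing between lists at these genes was counted beside that of the whole lists. Of the 5 MiaPaCa2 peaks in the windows 2 were in the RKO list, where 57.4% of all MiaPaCa2 peaks were, and of the 7 RKO peaks 2 were in the MiaPaCa2 list, where 39.1% were. Both WT clone peaks and all 5 delta-Repeat clone peaks overlapped a MiaPaCa2 peak, where 95.2% and 86.6% of the whole lists did. Of the WT clone peaks 1 of 2 was in that of the delta-Repeat clone (73.4% of all WT clone peaks), and in the other direction 2 of 5 were (51.3% of all delta-Repeat clone peaks). Matches for the 5 MiaPaCa2 peaks numbered 4 in the delta-Repeat clone (38% of all MiaPaCa2 peaks) and 2 in the WT clone (29.3%). RKO held 3 of the 5 delta-Repeat clone peaks (71.1%) and 1 of the 2 WT clone peaks (76.8%), and its own 7 peaks had matches in the delta-Repeat clone for 2 (21.1%) and in the WT clone for 1 (16%). With 2 to 7 peaks per list, no difference from the whole lists was read from these counts. The 5 ZEB1 peaks that were in no other ZEB1 list were 5 of the 7 RKO peaks, and 59.1% of the whole RKO list, the longest, was in no other ZEB1 list.

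CTCF overlapped 4 of the 19 ZEB1 peaks. It was 1 of 5 in MiaPaCa2 (20.2% of the whole list), 2 of 5 in the delta-Repeat clone (22.7%), 1 of 7 in RKO (14.8%) and 0 of 2 in the WT clone (20.4%). The summit of CTCF lay at least 112 bp from that of ZEB1 in all 4 cases. With a limit of 100 bp between summits, none of the 4 remained. The share of the whole lists within this limit was not counted, so nothing particular to these genes was read from it.

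The place of the ZEB1 peaks at these genes within their own list varied by list. A fold above the median of the own list was found for 3 of 5 peaks in MiaPaCa2, 3 of 5 in the delta-Repeat clone, 2 of 7 in RKO and 0 of 2 in the WT clone. The median share of the own list with a lower fold was 75.3% for the 5 MiaPaCa2 peaks, 64.8% for the 5 delta-Repeat clone peaks, 38.5% for the 7 RKO peaks and 30.7% for the 2 WT clone peaks. The median fold of the whole list was 6.53 in MiaPaCa2, 7.06 in the delta-Repeat clone, 6.04 in RKO and 7.46 in the WT clone. Because the lists also differ in length, these shares do not compare binding strength between lists. A stricter threshold, with a fold of at least 5 and a −log10 q of at least 10, left 3 of 5 MiaPaCa2 peaks (41.9% of the whole list), 3 of 5 delta-Repeat clone peaks (48.9%), 2 of 7 RKO peaks (41%) and 0 of 2 WT clone peaks (51.9%). It left 7 of the 9 CTCF peaks (80.4%). The WT clone peak at ZEB1 with a −log10 q of 10.00 fell just under this threshold. At ZEB1 the stricter threshold left 2 MiaPaCa2, 1 RKO and 1 delta-Repeat clone peak. Every ZEB1 list was also shortened to its 1515 peaks of highest −log10 q. This kept 1515 of 4804 peaks in MiaPaCa2, of 2160 in the delta-Repeat clone and of 7193 in RKO, and the whole WT clone list. The windows then held 3 MiaPaCa2, 5 delta-Repeat clone, 1 RKO and 2 WT clone peaks. RKO, the list cut most, kept only the peak at ZEB1.

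**Figure D4:**
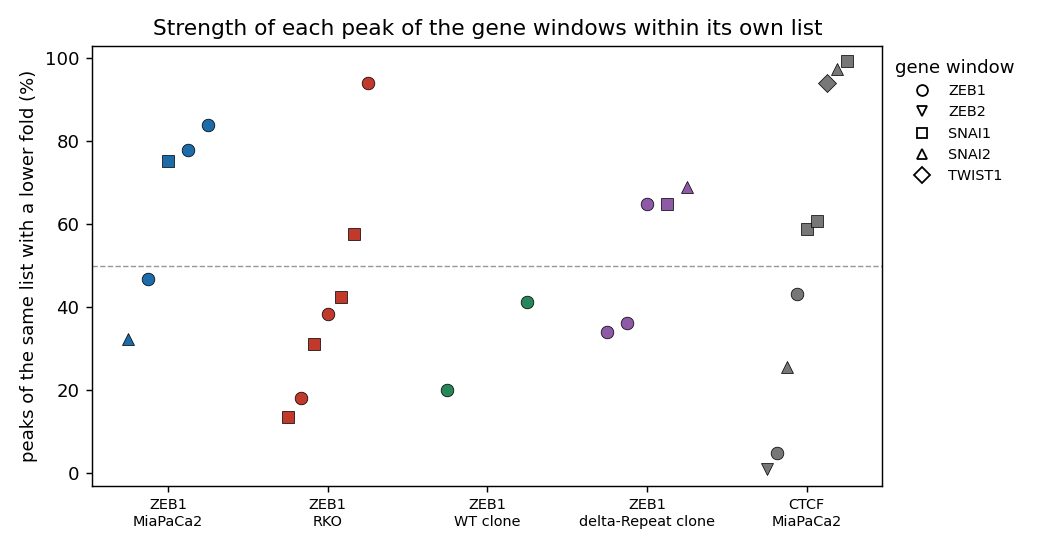
Share of the peaks of the same list with a lower fold (vertical axis, in percent) for each peak of the gene windows, by list, with the gene window as the symbol. The dashed line marks 50%. The lists differ in length, so the shares are to be read within a list. The RKO peak at ZEB1 is the highest ZEB1 peak at 94.1%, and both WT clone peaks lie below the line.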

How the data were processed

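The samples were chromatin precipitated for ZEB1 or CTCF. Of 9 samples, 5 have a peak list, and the 4 inputs were not analysed here. Per the submitters' processing notes, the authors used Bowtie2 2.2.6, SAMtools and MACS2 2.1.0.20150731 with the builds hg19 and GRCh37. The control of each list, and any pooling, are not given in the sources used here. As deposited, the fold enrichment is a linear ratio at the summit. Significance is deposited per peak as the −log10 of its p-value and q-value. The deposited score was not used. Positions are counted from 1.

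A peak was a member when any base lay in a window, and peaks were shared when they overlapped by at least 1 bp (Python 3.11.15, numpy 2.4.6, pandas 2.3.3; figures with matplotlib 3.10.9). The overlap code was tested on simulated data beside bedtools 2.31.1. Background stretches ran end to end along each chromosome up to the largest peak end of the 5 lists, 3054 Mb in all. This length, also used for peaks per Mb over all chromosomes, includes gaps of the assembly and stretches without genes. All peaks of the windows are accounted for, with those of highest fold and those in 3 or 4 lists described singly. The nearest outside peaks are given for some windows, sides and lists only. The members and lists were chosen with earlier results of these data known. Gene names of the windows came with the windows. Promoters are from RefSeq (GRCh38.p14), and sequence or annotation of hg19 was not used here. Alternatives were a stricter threshold, equal list lengths, other overlap rules, joined peaks, summits in the window and wider windows.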

Additional observations from a re-analysis of the deposited data

How the results depend on the processing

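No paired analysis was possible because no group had a second sample, and for the same reason no replicate could be left out. The counts are small, so a change of 1 peak can exceed 1.5 times. Under the stricter threshold the windows held 3 MiaPaCa2, 3 delta-Repeat clone, 2 RKO and 0 WT clone ZEB1 peaks, where 41.9%, 48.9%, 41% and 51.9% of the whole lists passed it. These made 4 regions, with 3 in at least 2 lists and 0 in all 4. Between the clones 0 peaks were then shared in either direction, 0 WT clone and 2 delta-Repeat clone peaks were in MiaPaCa2, and CTCF overlapped 0 MiaPaCa2, 0 RKO and 1 delta-Repeat clone peak. With ZEB1 lists of equal length there were 3 MiaPaCa2 and 1 RKO peak, 5 regions and 3 in at least 2 lists. Equal length kept 1515 of the 4804 MiaPaCa2 peaks and 1515 of the 7193 RKO peaks. Sharing was 1 between MiaPaCa2 and RKO in each direction and 1 of the WT clone in MiaPaCa2, and 0 RKO peaks met CTCF. Both settings remove peaks by construction. With 50% of both peaks overlapping, 0 WT clone and 0 delta-Repeat clone peaks were shared between the clones, 2 delta-Repeat clone peaks were in MiaPaCa2 and 1 met CTCF. This rule drops pairs of unequal width by construction. With summits within 100 bp, 1 peak was shared between MiaPaCa2 and RKO in each direction, 1 delta-Repeat clone peak was in the WT clone and 0 WT clone peaks were in MiaPaCa2. CTCF then met 0 MiaPaCa2, 0 RKO and 0 delta-Repeat clone peaks. Shares of the whole lists under the rules of 50% overlap and of summits within 100 bp were not counted. No difference between these genes and the whole lists was therefore read from either rule. Joining peaks less than 1 kb apart gave 4 regions, 3 of them in at least 2 lists. The other 33 values stayed within 1.5 times, among them all counts with summits in the window and with windows widened by 50 kb on each side. Unknown read depth limits every statement on an absent peak.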

Other observations

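In the delta-Repeat clone, the group of ZEB1 peaks at the ZEB1 gene was preceded by 6.85 Mb of chromosome 10 without a peak of that list (24755664 to 31607025). The same stretch held 6 MiaPaCa2, 3 WT clone and 17 RKO peaks. ZEB2 lay in a stretch of 9.62 Mb of chromosome 2 without a MiaPaCa2 ZEB1 peak (139782949 to 149401441), which held 2 RKO, 2 delta-Repeat clone and 0 WT clone peaks. The choice of both stretches was made with the lists in view, and gaps of the assembly were not taken out of their lengths.

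The delta-Repeat clone list gave the same fold (8.23), −log10 p (15.4) and −log10 q (11.2) to its second place at ZEB1 and to its SNAI1 peak, which lie on chromosomes 10 and 20. Peaks with 406 and 298 bp of width thus had identical values at their summits.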
